A study of Schizosaccharomyces pombe with 14 samples.

Results

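The nuclear pore complex genes of fission yeast (Schizosaccharomyces pombe) were taken as the protein-coding genes whose deposited product description names a nucleoporin or the nuclear pore, whose gene name begins with nup and a digit, or which are pom34 or pom152. This gave 30 genes of the 6988 identifiers counted, of which 5123 are protein coding. By known position in the pore, 9 belong to the outer ring (Y complex), 6 to the inner ring, 3 to the central channel, 4 to the cytoplasmic side, 5 to the nuclear basket and 2 to the membrane ring, and mex67, a mobile mRNA export receptor, stands alone. A pair of antisense RNAs that carry member names, nup120-antisense-1 and nup211-antisense-1, were not counted as members. The pore genes cut11, seh1 and amo1 are named in the files but are not reached by the rule, and they are described separately.

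The nuclear pore complex is a channel through the nuclear envelope, built of stacked rings of scaffold proteins that are anchored in the membrane. Proteins with phenylalanine-glycine repeats fill the channel and bind the transport receptors that carry proteins and RNA across it. Filaments reach into the cytoplasm, where exported mRNA is released, and a basket reaches into the nucleus.

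Poly(A)+ RNA was sequenced from 2 strains at 7 times, with 3 libraries at each, 42 libraries in all. The wild type carried the mating type h- and no other listed allele, and the other strain was h+ with maf1, whose product represses transcription by RNA polymerase III, replaced by natMX (maf1Δ::natMX). At 0 h both strains were in log phase in rich medium (YES), and at 4, 8, 12, 24, 36 and 48 h both had been kept in ePMGT medium lacking phosphate. Loss of phosphate and the change of medium therefore cannot be told apart in any comparison with 0 h. Strain, mating type and library depth also change together and cannot be told apart: totals were 12157201 to 26359389 counts in the wild type and 33249827 to 42808200 in the deletion. Nothing states that the 3 libraries of a sample were separate cultures, so p-values measure the spread between these libraries.

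Levels are CPM, counts per library scaled to a common size after TMM normalisation. Every wild-type library held maf1 at 20.9 CPM or more (up to 106) and every deletion library at 7.13 CPM or less (down to 1.59). At 0 h the mating-type genes followed the labels in part. The gene mam2, for the P-factor receptor of h- cells, was split as the labels say, with 139 to 186 CPM in the wild-type 0 h libraries and 2.67 to 4.01 CPM in the deletion. The h+ gene map3, for the M-factor receptor, also followed the labels at 0 h (9.23 to 10.1 CPM in the wild type and 24.6 to 26.9 CPM in the deletion), as did the M-factor gene mfm2 (27.4 to 33.5 and 3.99 to 4.81 CPM). The h- genes mfm3, mam1 and mam3 were also higher in the wild type at 0 h, while mfm1 was not split (0.404 to 0.871 and 0.399 to 0.659 CPM). In contrast, map2, the P-factor gene used by h+ cells, stood at 106 to 111 CPM in the libraries labelled wild type 0 h and at 5.57 to 6.36 CPM in those labelled deletion 0 h. The h+ gene map1 went against the labels too, at 29.9 to 31.5 CPM in the wild type and 8.75 to 12.6 CPM in the deletion. At all later times map2 was between 7.58 and 12.2 CPM in the wild type. Comparisons that use the wild-type 0 h libraries carry this discrepancy, and its part in them was not tested. Comparisons of late with early starvation, and of the strains during starvation, do not use those libraries. The labels were followed only in part during starvation as well. The h+ gene map1 stayed higher in the wild type (65.6 to 84.4 CPM at 24 to 48 h) than in the deletion (9.53 to 18.0 CPM). At 48 h map3 was also higher in the wild type (23.2 to 26.2 and 13.2 to 14.5 CPM), while mam2 followed the labels. So did map2, by a smaller margin (10.6 to 11.5 and 12.3 to 14.3 CPM). The other h- genes followed the labels at 48 h as well. In the wild type and the deletion, mfm1 was at 365 to 642 and 2.65 to 3.70 CPM. For mfm2 these were 104 to 124 and 11.5 to 15.1 CPM, and for mfm3 68.4 to 134 and 0.171 to 0.373 CPM. For mam1 they were 133 to 174 and 53.3 to 54.5 CPM, and for mam3 128 to 157 and 36.3 to 40.3 CPM. The part of the discrepancies in the strain comparisons was not tested.

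All 30 genes passed the filter on low counts, with 402 to 17611 counts per gene and library. Their median coefficient of variation within a group of 3 libraries was 3.01%, with a range of 0.143% to 10.8%. Changes are given as log2 ± SE from 1 edgeR quasi-likelihood model of all 42 libraries, and a gene is said to rise, fall or differ when its change was at least 2-fold (log2 of 1) at an adjusted p under 0.05 (Benjamini-Hochberg, over all genes). Levels are not corrected for gene length and are compared only within a gene. Early starvation means the 9 libraries of 4, 8 and 12 h of a strain, and late starvation the 9 libraries of 24, 36 and 48 h. The change of a stage averages its 3 times. Its SE and p-value rest on the spread among libraries of the same time, not on differences between times.

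In the wild type, a subset of pore genes spread over the outer ring, inner ring, channel and basket fell during starvation. Early, the share that fell was a little below that of all genes and a little above that of protein-coding genes. Late, it was above both. All genes include features that are not protein coding, while the members all are. Of the 5047 protein-coding genes tested, 799 fell and 899 rose early, and 816 fell and 1045 rose late. In early starvation 5 of 30 members fell and 0 rose, where 18.9% of all 6521 genes tested fell and 19.6% rose. In late starvation 8 fell and 0 rose, where 20.1% of all genes fell and 22.0% rose. By adjusted p alone 18 members were lower and 10 higher early, where 43.3% of all genes were lower and 45.5% higher. Late, 19 were lower and 9 higher, where 45.2% were lower and 45.2% higher. The members' median log2 change was -0.12 early and -0.52 late, against 0.04 and 0.00 over all genes.

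The largest decrease was that of alm1, which encodes a large coiled-coil protein of the nuclear basket related to vertebrate Tpr. Its level was 327, 321 and 332 CPM in the 3 wild-type libraries of 0 h, and 79.5 at the lowest, 94.4 at the median and 124 CPM at the highest in early starvation. In late starvation its 9 libraries ran from 72.4 through 80.3 to 87.7 CPM. Every starved library lay below every 0 h library. The change was -1.75 ± 0.03 early (adjusted p = 3.01e-34, edgeR) and -2.05 ± 0.03 late (adjusted p = 2.86e-36, edgeR). The related basket gene nup211 was 129 to 132 CPM at 0 h and 56.6 to 64.8 CPM late, and fell by 1.10 on the log2 scale late, with an early value of -0.44. Of the other basket genes, nup61 was at -0.77, nup124 at 0.16 and nup60 at 0.50 late, all short of 2-fold.

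In the outer ring, nup189, whose product is cleaved into the repeat protein Nup98 and the scaffold protein Nup96, stood at 579, 539 and 584 CPM at 0 h. It was at 183, 193 and 210.5 CPM at the lowest, median and highest of the late libraries. The groups did not overlap, and the change was -1.28 ± 0.03 early and -1.55 ± 0.03 late. The scaffold gene nup120 was 134 to 135 CPM at 0 h and 52.3 to 79.5 CPM late (-1.07 ± 0.04), a call lost without the 48 h libraries (-0.94). In the opposite direction, nup37, a WD-repeat subunit of the same complex, was 67.1, 58.9 and 63.5 CPM at 0 h and 117 to 137 CPM late. Its log2 change of 0.99 was just short of the 2-fold threshold, with no overlap between the groups. The remaining outer ring genes nup107, nup131, nup132, nup85, ely5 and sec13 lay between -0.67 and 0.27 late.

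The inner ring, which holds the scaffold together around the channel, had 3 of its 6 genes lower in late starvation. All 6 were lower by adjusted p alone in both stages, in which 43.3% and 45.2% of all genes were lower. The Nic96 homolog nup97 was at 378, 346 and 398 CPM at 0 h and at 101 to 125 CPM late, with no overlap and a change of -1.72 ± 0.03. It also fell early, by 1.22 on the log2 scale. The gene nup40, for a membrane-binding inner ring protein, fell by 1.22 late and by 1.03 early, the early call being lost without the 8 h libraries (-0.995) or the 12 h libraries (-0.92). The scaffold gene nup155 fell by 1.02 late, a call lost without the 48 h libraries (-0.97). The inner ring genes nup186, nup184 and npp106 were at -0.78, -0.77 and -0.47.

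A difference appeared between the paired Nic96 homologs nup97 and npp106. The ratio of nup97 to npp106 counts was 3.83 ± 0.30 (SD, n = 3) in the wild type at 0 h and between 1.49 and 1.84 at every later wild-type time. In the deletion it was 1.48 at 0 h and 1.51 to 1.77 during starvation. The wild-type 0 h libraries alone stood apart on this ratio.

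In the central channel, the repeat protein gene nsp1, a homolog of vertebrate Nup62, was at 511, 446 and 527 CPM in the wild-type 0 h libraries. It was at 152 to 243 CPM early (-1.43 ± 0.04) and 148 to 178 CPM late (-1.60 ± 0.04), without overlap. Its channel partners nup44 and nup45 were at 0.08 and 0.49 late. On the cytoplasmic side 0 of 4 genes passed the threshold, with nup146 at -0.82, nup82 at -0.64, gle1 at 0.01 and rae1 at 0.29. In the membrane ring, pom34 was at -0.46 and pom152 at -0.57, and mex67 was at 0.28.

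**Figure D1:**
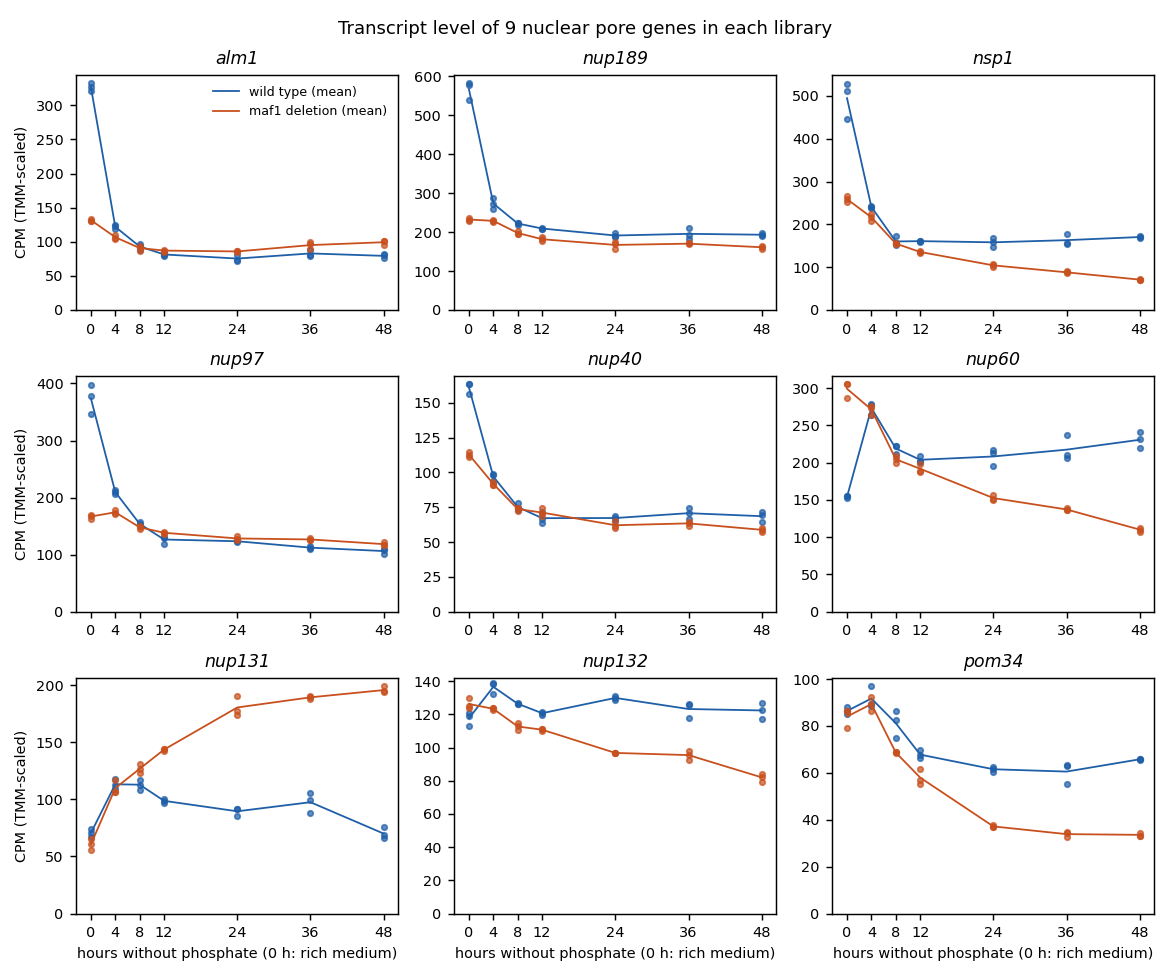
Level in CPM after TMM scaling (vertical axis, from 0) of 9 nuclear pore genes against hours without phosphate (horizontal axis, 0 h in rich medium), with 1 point per library and lines through the mean of 3 libraries of the wild type (blue) and the maf1 deletion (orange). The wild-type 0 h libraries are the highest for alm1, nup189, nsp1, nup97 and nup40, and nup131, nup60, nup132 and pom34 separate between strains in late starvation.

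Between early and late starvation, a comparison that does not use the 0 h libraries, the members' median log2 change in the wild type was -0.29, against 0.00 over all genes. By edgeR 0 of 30 members passed the 2-fold threshold in either direction, where 6.62% of all genes were higher and 6.16% lower, and DESeq2 also called 0. At an unadjusted p under 0.05 there were 27 members, and 82.3% of all genes. By adjusted p alone 22 were lower and 5 higher, where 40.2% of all genes were lower and 41.4% higher. The largest changes were those of nup120 (-0.73 ± 0.03) and ely5 (-0.66 ± 0.03). The nup120 libraries ran from 81.6 to 142 CPM early and from 52.3 to 79.5 CPM late. Those of ely5 ran from 48.8 to 73.6 CPM early and from 32.1 to 44.3 CPM late, without overlap for either gene.

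In the maf1 deletion, against its own 0 h libraries, fewer members fell early than in the wild type and as many fell late. Of the members that fell late, nsp1 and nup120 passed the 2-fold threshold in both strains and the others in 1 strain. The share of all genes that fell late in both strains was not computed. By adjusted p alone 19 members were lower late in the wild type and 24 in the deletion. Of the 6521 genes tested, 2948 and 2971 were. The contrast with the wild type also uses the wild-type 0 h libraries. In early starvation 1 of 30 members rose and 0 fell, where 18.7% of all genes rose and 16.3% fell. In late starvation 1 rose and 8 fell, where 22.6% rose and 18.7% fell. The median log2 change of the members was -0.27 early and -0.61 late, against 0.01 and -0.01 over all genes.

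The gene that rose was nup131. It encodes 1 of the 2 fission yeast homologs of the Y complex protein Nup133, placed on the cytoplasmic face of the pore, while its paralog Nup132 is placed on the nuclear face. In the deletion nup131 stood at 55.5, 65.4 and 60.7 CPM at 0 h. In early starvation its lowest, median and highest libraries were at 106, 126 and 144 CPM, and in late starvation at 174, 191 and 199 CPM. The 3 stages did not overlap. The change was 1.06 ± 0.05 early (adjusted p = 2.62e-22, edgeR) and 1.64 ± 0.05 late (adjusted p = 3.93e-28, edgeR). The early call was lost without the 12 h libraries (0.97) and without the first 0 h library of the deletion (just under 1), while the late call held in every alternative tried. In the wild type nup131 was at 67.5 to 73.7 CPM at 0 h, 97.1 to 118 CPM early and 65.9 to 105 CPM late, and its changes of 0.61 and 0.27 were short of 2-fold.

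The paralog nup132 did not pass 2-fold in the deletion. It stood at 124 to 130 CPM at 0 h and at 79.5 to 98.2 CPM late (-0.47). The ratio of nup131 to nup132 counts in the deletion was 0.479 ± 0.040 at 0 h, 0.891 ± 0.048 at 4 h, 1.30 ± 0.01 at 12 h, 1.87 ± 0.09 at 24 h and 2.39 ± 0.05 at 48 h (SD, n = 3). In the wild type the means ran between 0.573 and 0.894 over all 7 times, and no library exceeded 0.930. Every deletion library from 8 h on lay above every wild-type library.

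**Figure D2:**
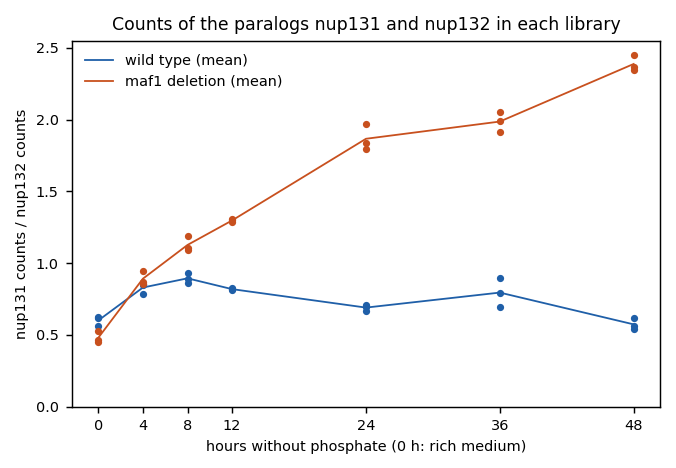
Ratio of nup131 counts to nup132 counts (vertical axis, from 0) against hours without phosphate (horizontal axis), with 1 point per library and lines through the means of 3 libraries in the wild type (blue) and the maf1 deletion (orange). The deletion ratio is 0.479 at 0 h and 2.39 at 48 h, and the wild-type means stay between 0.573 and 0.894.

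Both membrane ring genes fell late in the deletion. The gene pom34, for a transmembrane nucleoporin, was at 86.4, 79.3 and 86.3 CPM at 0 h and at 32.5, 34.4 and 37.9 CPM at the lowest, median and highest of the late libraries (-1.27 ± 0.04, adjusted p = 7.36e-28, edgeR). Its partner pom152 was at 279, 280 and 276 CPM at 0 h and at 94.0 to 121 CPM late (-1.37 ± 0.03). Neither gene's late libraries overlapped with 0 h. The related membrane gene cut11, a homolog of Ndc1 that helps to insert pores and the spindle pole body in the envelope, fell late in both strains, by 1.46 in the wild type and by 1.34 in the deletion.

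In the basket of the deletion, nup61 and nup60 fell late. The gene nup61, a homolog of vertebrate Nup50, was at 225 to 234 CPM at 0 h and at 78.7 to 92.7 CPM late (-1.44 ± 0.03). The gene nup60 was at 306, 287 and 305 CPM at 0 h and at 107 to 157 CPM late (-1.18 ± 0.03). Both were separated from 0 h in all 9 late libraries. The gene alm1, which fell in the wild type, was at 130 to 134 CPM at 0 h and 85.0 to 102 CPM late in the deletion (-0.50).

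Of the channel genes, nsp1 fell by 1.58 and nup44 by 1.20 late in the deletion, and nup45 was at -0.54. The nsp1 libraries were at 253 to 265 CPM at 0 h and 69.5 to 107 CPM late, and those of nup44 at 225 to 238 CPM and 96.2 to 107 CPM. Among the scaffold genes, nup120 fell by 1.10 and nup186, for a large inner ring protein, by 1.10. Both of these calls were lost with TMM factors from protein-coding genes (-0.97 and -0.96), and that of nup186 also without the 48 h libraries (-0.98). The cytoplasmic genes nup82 and nup146 were at -0.95 and -0.94, short of the threshold.

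Within starvation, the deletion had 1 member lower late than early, pom34, and 0 higher, where 6.29% of all genes were lower and 13.2% higher. By adjusted p alone 24 members were lower and 3 higher, where 44.0% of all genes were lower and 43.8% higher. The early pom34 libraries ran from 55.3 to 92.6 CPM and did not overlap with the late ones, whose highest was 37.9 CPM. The change of -1.02 ± 0.03 was near the threshold and was lost without the 4 h libraries (-0.86), without the 48 h libraries (just under 2-fold) and with TMM factors from protein-coding genes (-0.98). The gene nsp1 was at -0.94 and passed the threshold with library size alone and without the 12 h or the 24 h libraries (-1.08 to -1.01).

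**Figure D3:**
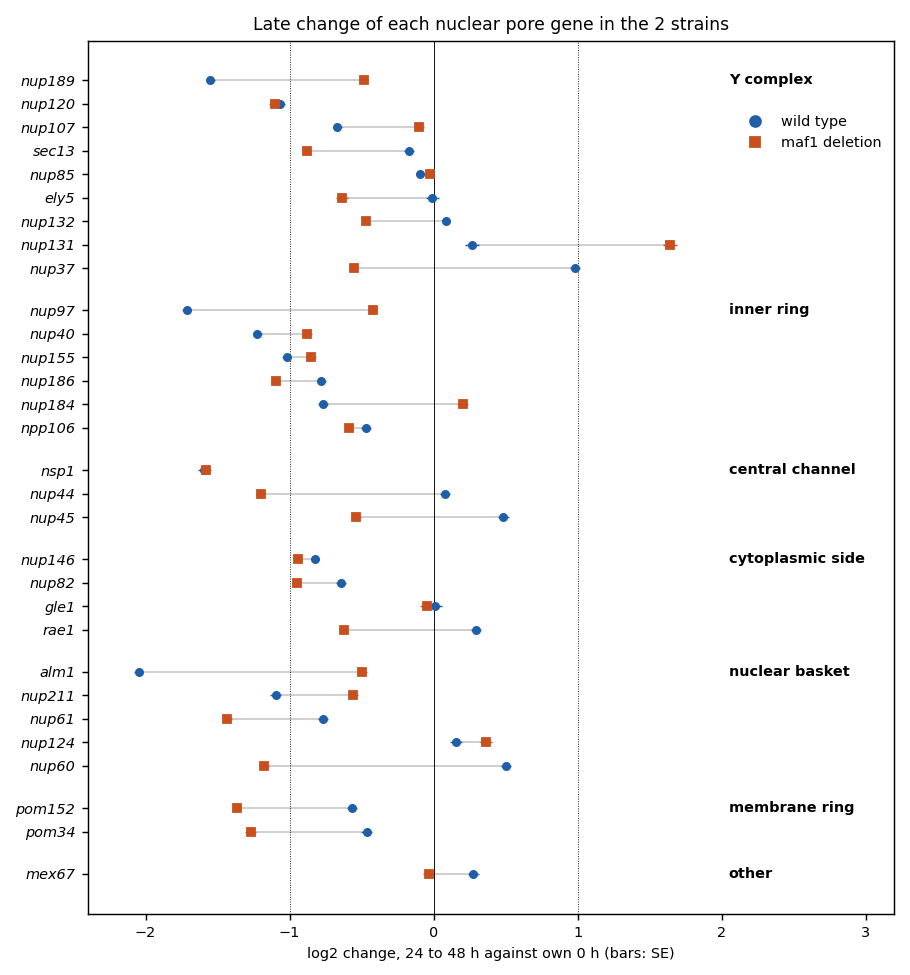
Log2 change of each of the 30 nuclear pore genes in late starvation (24 to 48 h, 9 libraries) against 0 h (3 libraries) of the same strain, for the wild type (blue circles) and the maf1 deletion (orange squares), with bars for the SE and dotted lines at 2-fold, grouped by place in the pore. The SE rests on the spread among libraries of the same time. The strains lie close together for nsp1 (-1.60 and -1.58) and nup120 (-1.07 and -1.10) and far apart for nup60 (0.50 and -1.18), alm1 (-2.05 and -0.50) and nup131 (0.27 and 1.64).

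In rich medium at 0 h, 1 member was higher and 3 were lower in the deletion than in the wild type. Of all genes 13.8% were higher and 15.9% lower, and of the 5047 protein-coding genes tested 676 were higher and 540 lower. The genes alm1, nup189 and nup97 differed by -1.31 ± 0.04, -1.29 ± 0.04 and -1.16 ± 0.04. The deletion libraries were at 130 to 134 CPM for alm1, 229 to 236 CPM for nup189 and 163 to 169 CPM for nup97, each under the values given above for the wild type at 0 h. The gene ely5, a homolog of the chromatin-binding protein ELYS, was higher, at 76.2, 81.5 and 77.2 CPM against 38.6, 38.5 and 37.6 CPM (1.03 ± 0.05). This call was lost in 5 alternatives, which gave 0.75 to 0.98, among them library size alone and DESeq2, so that 0 members were higher there. In the reference gene order of assembly ASM294v3, alm1 and nup189 are neighbours on opposite strands that point away from each other, and so are ely5 and pom152. The 30 members hold no other adjacent pair. At 0 h pom152 was also higher in the deletion by adjusted p, at 0.48, as were 3105 of the 6521 genes tested at any size of change.

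During early starvation the strains were close. By edgeR 0 of 30 members differed by 2-fold, where 2.35% of all genes were higher and 4.60% lower in the deletion. Of the 5047 protein-coding genes tested, 43 were higher and 75 lower. DESeq2 also called 0 members, and 21 members had an unadjusted p under 0.05, as did 75.8% of all genes. By adjusted p alone 18 were lower and 3 higher, where 36.8% of all genes were lower and 37.7% higher. The largest differences were those of gle1 (0.35 ± 0.03), an activator of the helicase that strips exported mRNA, and nup146 (-0.25 ± 0.02). Every member lay within 0.5 of no difference at 4 h and at 8 h. The strains also came closer over all 6521 genes, of which 901 were higher and 1036 lower at 0 h, and 123 and 321 at 8 h. The median size of the difference over members was 0.49 at 0 h, 0.13 at 4 h, 0.08 at 8 h and 0.12 at 12 h. The 0 h and later values share no libraries, but a value at 0 h rests on the libraries whose map2 level disagrees with their label.

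The strains separated again in late starvation. The median size of the difference was 0.23 at 24 h, 0.32 at 36 h and 0.42 at 48 h, and members within 0.5 of no difference numbered 27, 24 and 20. These sizes were not computed over all genes. All genes separated too, from 123 higher and 321 lower at 8 h to 933 and 533 at 48 h, so this was not particular to pore genes. Over the late stage 1 member was higher and 0 lower in the deletion, where 10.9% of all genes were higher and 6.62% lower. Of the 5047 protein-coding genes tested, 292 were higher and 217 lower. The member that was higher was nup131 (1.15 ± 0.03, adjusted p = 3.99e-28, edgeR). Its lowest deletion library (174 CPM) was above its highest wild-type library (105 CPM). Without the 48 h libraries the difference was 0.98, under the threshold. At 48 h alone nup131 was higher (1.49 ± 0.06) and nsp1 (-1.27 ± 0.05) and nup60 (-1.07 ± 0.04) were lower, where 14.3% of all genes were higher and 8.17% lower. At 48 h nup60 stood at 232, 241 and 219.5 CPM in the wild type and 110.3, 107 and 113 CPM in the deletion, and nsp1 at 170, 173 and 168 CPM against 69.5, 70.2 and 72.8 CPM. Over the late stage nsp1 (-0.92) and pom34 (-0.85) came next in size, under the threshold, pom34 with 55.3 to 66.1 CPM in the wild type and 32.5 to 37.9 CPM in the deletion.

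**Figure D4:**
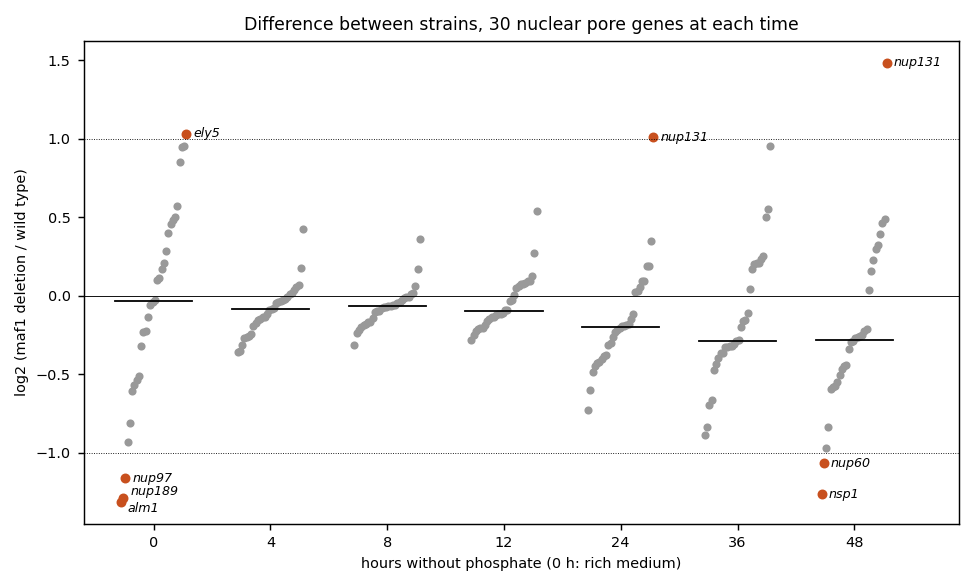
Log2 ratio of the maf1 deletion to the wild type (vertical axis) for each of the 30 nuclear pore genes at each of 7 times (horizontal axis, hours without phosphate), with orange points for genes that differ by at least 2-fold with adjusted p under 0.05 and a black line at the median. The points span -1.31 to 1.03 at 0 h, lie within -0.36 and 0.43 at 4 h and span -1.27 to 1.49 at 48 h.

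The difference between strains in the response itself was tested with an interaction term. For early starvation against 0 h, 3 members had a change that was higher in the deletion and 2 one that was lower, where these were 15.6% and 15.6% of all genes. With library size alone these counts were 5 and 0, with TMM factors from protein-coding genes 3 and 0, and with RLE size factors or DESeq2 3 and 1. For late starvation against 0 h there were 4 and 4, where 20.5% of all genes were higher and 17.7% lower. The counts were 5 and 3 with RLE size factors, with TMM factors from protein-coding genes, with the groups of the contrast alone and with DESeq2, and 5 and 2 with library size alone. The inner ring gene nup184, at 0.97, passed the threshold in 7 alternatives (1.01 to 1.27). The genes alm1, nup189 and nup97 had late differences of 1.55, 1.07 and 1.29, and their level in late starvation itself differed between strains by no more than 0.24. Those that were lower in the deletion in both stages were nup37 and nup60, at -1.54 and -1.68 late. In the wild type nup60 was at 152 to 156 CPM at 0 h and 195 to 241 CPM late, and in the deletion nup37 was at 119.7 to 124 CPM at 0 h and 78.3 to 87.5 CPM late. The wild-type 0 h libraries enter each of these values. For late against early starvation, which does not use them, edgeR called 0 members, where 9.75% of all genes were higher and 4.22% lower. DESeq2 also called 0, and 26 members had an unadjusted p under 0.05, as did 77.8% of all genes. The largest values there were those of nup131 (0.93 ± 0.04), nsp1 (-0.77 ± 0.04), pom34 (-0.68 ± 0.04) and nup60 (-0.66 ± 0.04).

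As a share of all counts in a library, the 30 genes together made up 6078 to 6202 CPM in the wild-type 0 h libraries and 3265 to 3403 CPM at 48 h. In the deletion they made up 4294 to 4449 CPM at 0 h and 2655 to 2756 CPM at 48 h. These sums are CPM of the library total, without TMM scaling. They compare shares of the RNA sampled, not amounts per cell.

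Genes that work with the pore were read from lists of transport receptors and the Ran cycle (21 genes), mRNA export (11), the nuclear envelope (23) and the SUMO pathway (11). The background is the share of all genes given above, 18.7% lower and 22.6% higher late in the deletion, and 20.1% lower and 22.0% higher late in the wild type. Late in the deletion 9 of the 21 transport genes fell and 0 rose, with imp1, an importin alpha, at -1.56, sbp1, a Ran-binding protein, at -1.48 and spi1, the Ran GTPase, at -1.19. In the wild type 3 of 21 fell late and 1 rose, with the importin gene sal3 at -1.57, the tRNA exportin gene los1 at -1.46 and mog1, a Ran-binding protein, at 3.78. The median of this list was -0.82 in the deletion and -0.64 in the wild type. These calls share their 0 h libraries with the member calls of the same strain.

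Of the mRNA export genes 3 fell and 0 rose late in the deletion, among them the helicase genes uap56 (-1.70) and dbp5 (-1.06), and 2 fell and 2 rose in the wild type. Of the envelope genes 5 rose and 1 fell late in the deletion, and 5 rose and 2 fell in the wild type, with ish1, an inner envelope protein, at 4.64 and 2.37. Of the SUMO genes 1 rose and 1 fell late in the deletion, and 3 rose and 2 fell in the wild type. Late changes in this list ran from -1.93 to 6.82 in the deletion and from -5.24 to 1.93 in the wild type. The difference between strains in the late change reached 12.1, and the lowest value of deletion against wild type at 0 h was -8.83. The SUMO protease gene ulp1, whose product is held at pores, fell in both strains, by 1.93 and by 2.24. The pore genes seh1 and amo1 were at 0.02 and -0.58 in the wild type and at -0.74 and -0.62 in the deletion.

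The antisense RNA nup120-antisense-1 rose in late starvation while nup120 fell. Its wild-type libraries were at 23.1, 18.3 and 12.4 CPM at 0 h and 84.0 to 85.6 CPM at 48 h, a late change of 2.31. The deletion libraries held 3.76 to 4.66 CPM at 0 h, between 59.3 and 62.7 CPM at 12 h, and 15.8 to 21.1 CPM at 48 h. The antisense RNA nup211-antisense-1 fell late, by 2.40 in the wild type and by 2.25 in the deletion. The library kit marks strand, but the strand setting used for counting is not given in the sources used here. The counts of nup120 and nup211 and of their antisense partners are therefore uncertain.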

How the data were processed

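Poly(A)+ RNA libraries were made with a stranded Illumina TruSeq kit, per the labels' protocols. The submitters' processing notes name HISAT2 2.1.0, SAMtools, HTSeq 0.10.0 and DESeq2, without roles, and the build ASM294v2. The count table deposited by the authors holds whole numbers, except that 0.5 stands for 0 (6.51% of values). These deposited estimated counts were rounded, 0.5 to 0, and 2 lines of 1 identifier were summed. The deposited comparison tables give the authors' log2 fold changes and adjusted p-values, which served only for gene names, products and a check of signs.

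CPM values were computed here after TMM scaling. With R 4.3.3 and edgeR 4.0.16, filterByExpr left 6521 genes, and all 42 libraries entered 1 quasi-likelihood model with a mean for each group (28 residual degrees of freedom). Adjusted p is Benjamini-Hochberg over all genes tested. DESeq2 1.42.0 was an alternative. Replicates differed by more than counting error (chi-square per degree of freedom 2.86 to 55.3).

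Members and lists were chosen with earlier results of these data known. All members are accounted for. Library values are given for pom34 and, per comparison, for up to 5 called members with the largest change, or the 2 largest where none was called. nup37 and the paralogs nup132 and npp106 were added after their values were seen. The reference gene table is of another assembly (ASM294v3) and served only for gene order, where all 30 members matched. Alternatives were other scalings, no filter, only the contrast's groups, a replicate block, and leaving out each time and each library.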

Additional observations from a re-analysis of the deposited data

Results flagged for a closer look

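For 13 results the response of a nuclear pore gene to starvation differed between the strains by at least 2-fold, by the interaction test of the edgeR model. Early, 3 of 30 members were higher and 2 lower, where 15.6% and 15.6% of all genes were. Late, 4 were higher and 4 lower, where 20.5% and 17.7% of all genes were. The shares of all genes were larger than those of the members, but all genes include features that are not protein coding. Of the 5047 protein-coding genes tested, 567 were higher and 713 lower early, and 683 higher and 902 lower late. Against these the members' shares higher were close, and their shares lower were smaller. All 13 results use the wild-type 0 h libraries, in which map2 goes against the mating-type label. The part of those libraries was not tested.

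In early starvation the difference (deletion minus wild type, log2) was 1.27 for alm1, 1.08 for nup189, 1.10 for nup97, -1.10 for nup37 and -1.02 for nup60. The values for nup37 and nup60 lost the call with library size alone (-0.82 and -0.74) and with TMM factors from protein-coding genes (-0.97 and -0.89). That of nup60 lost it also with RLE size factors and with DESeq2 (-0.98 in both).

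In late starvation the difference was 1.55 for alm1, 1.07 for nup189, 1.29 for nup97 and 1.37 for nup131. It was -1.54 for nup37, -1.68 for nup60, -1.28 for nup44 and -1.03 for nup45. The value for nup44 lost the call with library size alone (-0.98). That of nup45 lost it in 6 alternatives, which gave -0.96 to -0.72.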

How the results depend on the processing

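The 12 stage comparisons held 42 member calls, and over 1059 alternative values 1028 kept the call, 31 lost it and 0 reversed. Counts of called members moved by over 1.5 times as follows. For the deletion in early starvation (1) the count was 2 without 4 h and 0 without 12 h. For the deletion late against early (1) it was 2 with library size alone, without 12 h and without 24 h, and 0 with TMM factors from protein-coding genes, without 4 h and without 48 h. For the strains in late starvation (1) it was 2 without 24 h and 0 without 48 h. For the early interaction (5) it was 3 with TMM factors from protein-coding genes. For the interaction of late against early (0) it was 1 with those factors, without 12 h and without 36 h. Leaving out 1 library gave 5 to 5 and 8 to 9 calls for early and late wild type, 0 to 1 and 9 to 9 for the deletion, 4 to 5, 0 to 0 and 1 to 1 between strains at the 3 stages, 5 to 6 and 8 to 9 for the interactions with 0 h, and 0 to 0, 1 to 1 and 0 to 0 late against early in the wild type, the deletion and their interaction. With library size alone, the all-gene median shifted to -0.27 late in the wild type, where 12 members were lower, and to -0.16 at 0 h between strains (0.12 with TMM). The members' median kept its sign in the 10 comparisons other than the interactions with 0 h, where it was -0.14 and -0.12 with TMM and 0.15 and 0.19 with library size alone. The replicate block gave the same counts, with 78 calls over single times with and without it. Libraries with the same number did not deviate together in the median (r 0.024 against -0.017 for other numbers). The ranges were -0.37 to 0.26 and -0.38 to 0.36. A median over all pairs cannot exclude pairing at some times. Each member had at least 402 counts in every library, and wild-type libraries were shallower than those of the deletion.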
